A study of Danio rerio with 6 samples.

Results

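Small sox10 clusters are groups of 2 to 19 sox10 binding peaks that lie close together in the genome of a zebrafish melanoma line called zcrest. They were found by joining the sox10 peaks on numbered chromosomes that lay 5000 bases or less apart, edge to edge, and by keeping the groups of 2 to 19 peaks. The rule gave 187 clusters with 948 peaks, out of 4202 sox10 peaks in all. The other peaks were 455 isolated ones, 793 in 27 clusters of 20 to 49 peaks, 2000 in 16 clusters of 50 or more, and 6 on the mitochondrial sequence. Members were chosen by the positions of the sox10 peaks alone, so the number, span and spacing of the clusters are descriptions. Acetylation of histone H3 at lysine 27 (H3K27ac) was not used in the choice.

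Sox10 is a transcription factor of the SRY-related HMG-box family that acts in neural crest cells and in the pigment cells and glia that descend from them. In the melanocyte lineage it activates the gene for mitfa, the zebrafish form of the pigment cell regulator MITF. H3K27ac marks active promoters and enhancers, and regions where a transcription factor binds in groups beside this mark are often studied as enhancers.

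The study used chromatin immunoprecipitation and sequencing (ChIP-seq) to map sox10 and H3K27ac in the line and H3K27ac in a primary melanoma. The zcrest line came from a founder fish labelled p53/BRAF/Na; crestin:EGFP, MiniCoopR alone, and had more than 20 passages; it gave the sox10 library and an H3K27ac library. The tumor, a bulk melanoma that was dissected and dissociated, arose in a p53/BRAF/Na fish injected with the control plasmid MiniCoopR;mitf:EGFP. Both sources therefore share p53/BRAF/Na and MiniCoopR, a plasmid with a minigene of mitfa, while crestin:EGFP, a neural crest reporter, is labelled for the line and mitf:EGFP for the tumor. Each ChIP group is 1 library, from 1 line or 1 tumor, so the values describe these libraries, no difference has a replicate check and no test was run. In a bulk tumor, fewer cells that carry a mark and less of the mark per cell cannot be told apart. Intervals in the text are exact (Clopper-Pearson) 95% binomial intervals; they describe counting error alone and treat neighbouring peaks as if they were independent. Positions are on the Zv9 assembly, and no gene annotation of that assembly was used here, so the clusters are named by position and the cell type was not checked against marker genes.

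The peak lists held 4202 sox10 peaks and 50338 H3K27ac peaks in zcrest, and 59760 H3K27ac peaks in the tumor. The deposited fold enrichment and p-value of a peak fix both the whole number of reads at its summit and the background that the peak caller set against it. Reads and background could be recovered for 4202 of 4202 sox10 peaks, 50334 zcrest H3K27ac peaks and 59755 tumor peaks. The median summit held 30 reads in the sox10 list, 27 in the zcrest H3K27ac list and 31 in the tumor list. These low read numbers limit the precision of every fold enrichment, which is the authors' value for each peak and was compared only within its own list.

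The small clusters were mostly short rows of narrow peaks. Pairs of peaks made up 73 clusters, 35 clusters had 3 to 4 peaks, 51 had 5 to 9 and 28 had 10 to 19. The median span was 2114 bases (quartiles 668 and 3920, range 178 to 14492), and all 187 spans added up to 505 kb. The median span grew with the number of peaks, at 596, 1603, 2731 and 5030 bases for clusters of 2, 3 to 4, 5 to 9 and 10 to 19 peaks. Spans above 5 kb were found in 29 clusters and spans up to 1 kb in 55. Every numbered chromosome held at least 1 small cluster, from 15 on chromosome 3 and 13 on chromosome 19 down to 1 on chromosome 15.

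The rule's limits cut through a continuous range of values. The longest gaps that still joined peaks of any cluster were 4974, 4863 and 4777 bases, and the shortest gaps that separated groups were 5001, 5230 and 5262 bases. The only cluster of 19 peaks was chr13:15511105-15521065, with a span of 9961 bases, a highest fold of 8.62 and no peak on H3K27ac. The clusters of 20 peaks just outside the limit had highest folds of 6.55 to 25.2. One of them, chr8:32011165-32019464, had 5 peaks on zcrest H3K27ac, and the others had none.

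Most small clusters stood far from other sox10 binding, but this was not particular to them. The median distance from a cluster to the next sox10 peak outside it was 292 kb, and 46 of the 187 had no other sox10 peak within 1 Mb. The same median was 308955 bases over all 685 clusters and isolated peaks, and 463497 bases for isolated peaks. Larger clusters had nearer neighbours, at medians of 8516 bases for 20 to 49 peaks and 6842.5 bases for 50 or more. At the other end, 38 clusters had a neighbour within 20 kb, and 16 lay within 100 kb of a cluster of 20 or more peaks. The cluster chr5:69764946-69768901, with 11 peaks, lay 6965 bases from such a cluster.

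The peaks in small clusters had higher fold enrichments than those in any other group of sox10 peaks. Their median fold was 6.26 (range 1.57 to 32.9), against 5.14 for isolated peaks, 4.94 in clusters of 20 to 49 and 4.25 in clusters of 50 or more. By size it was 6.03 in pairs, 6.48 in clusters of 5 to 9 and 6.57 in clusters of 10 to 19. In clusters of 3 to 4 it was 4.88, below isolated peaks and clusters of 20 to 49. The median width was 92 bases, and 75 of the 948 peaks had the smallest width in the list, 51 bases. The median −log10 q was 9.07, against 8.62 for all sox10 peaks on numbered chromosomes and 4.02 for isolated peaks. It was 9.26 in clusters of 20 to 49 and 9.43 in clusters of 50 or more. By this measure the small clusters thus ranked below both groups of larger clusters. A −log10 q of at least 10 was found for 426 of the 948 peaks (44.9%). The share over all sox10 peaks is not given here.

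The groups did not rank by reads as they did by fold. The median summit held 21 reads in small clusters, against 10 in isolated peaks, 31 in clusters of 20 to 49 and 35 in clusters of 50 or more. The caller's background had a median of 1.74 reads in small clusters, against 0.823, 5.76 and 7.41 reads in the same 3 groups. Both reads and background thus lay between those of isolated peaks and of larger clusters. The lowest background in the whole list was 0.697 reads, and 14.7% of the small-cluster peaks were at it, against 19.6% of isolated peaks, 3.66% in clusters of 20 to 49 and 0.90% in clusters of 50 or more. The fold is the ratio of reads to background after the caller adds 1 to each, so the ranking of groups by fold depends on the background as well as on the sox10 signal.

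**Figure D1:**
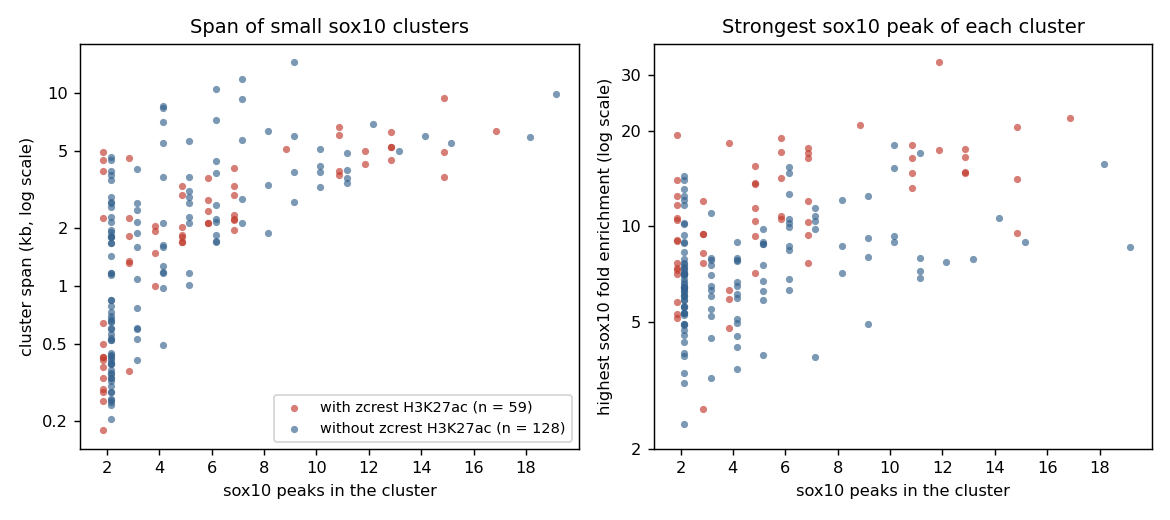
Span (left, kb, log scale) and highest sox10 fold enrichment (right, log scale) of each small cluster against its number of sox10 peaks. Each point is 1 cluster, red with a sox10 peak on zcrest H3K27ac (n = 59) and blue without (n = 128). The median span grows over the size classes, the median of the highest fold is higher from 5 peaks on, and the median fold of the red points is the higher one in each size class of the text (9.02 against 6.45 in pairs, 16.5 against 8.94 in clusters of 10 to 19).

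Clusters of 5 or more peaks had a higher highest fold than smaller ones. The median of the highest fold was 7.02 in pairs, 6.48 in clusters of 3 to 4 peaks, 10.2 in clusters of 5 to 9 and 14.7 in clusters of 10 to 19. The rank correlation of the number of peaks with the highest fold was 0.50 over the 187 clusters, which share 1 library, and a cluster with more peaks has more chances of a high one. The number of peaks was nearly unrelated to the cluster's median background, with a rank correlation of 0.06. The highest fold itself had a rank correlation of −0.37 with that background. What part the background has in the link of peak number and highest fold was not tested. In clusters of 3 or more peaks, the strongest peak was one of the 2 outermost in 38 of 114. No share for random placement was computed, so this count does not show a preferred position.

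Neighbouring summits in small clusters lay close together. Over 761 neighbouring pairs the median distance was 382 bases (quartiles 245 and 702, range 83 to 4875), and 478 distances (62.8%) were 500 bases or less. The median was smaller in larger clusters, at 525 bases in pairs, 448 in clusters of 3 to 4, 410 in clusters of 5 to 9 and 356 in clusters of 10 to 19. It was 353 bases in clusters of 20 to 49, close to that of clusters of 10 to 19, and 284 bases in clusters of 50 or more. The number of peaks per kb of span did not rank the groups in this way. Its median was 2.55 in small clusters, against 2.14 in clusters of 20 to 49 and 2.64 in clusters of 50 or more. The smallest gap between peak edges was 51 bases in each of these groups, the same as the smallest peak width. Whether the peak caller set this limit was not tested.

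Summit distances in the largest clusters recurred at a fixed step, and small clusters held a weaker form of the same pattern. In clusters of 50 or more peaks, the step that fitted best was 183 bases, so the high share there is built in. Summit pairs 229 to 1327 bases apart were counted as on the step when they lay nearer to a whole multiple of 183 bases than to the midpoint between multiples, which is about 50% for distances without a step. In small clusters 728 of 1330 pairs (54.7%) were on the step, against 60.2% in clusters of 20 to 49 and 67.8% in clusters of 50 or more. The zcrest and tumor H3K27ac lists gave 49.3% and 50.3%. Pairs of a cluster share summits, so no interval is given.

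Among small clusters, the share on the step was higher without H3K27ac than with it. Clusters with a sox10 peak on zcrest H3K27ac had 307 of 619 pairs (49.6%) on the step, and clusters without one had 421 of 711 (59.2%). By size, the shares with and without H3K27ac were 37.9% and 49.2% for 3 to 4 peaks, 47.1% and 55.2% for 5 to 9, and 51.4% and 63.2% for 10 to 19. More pairs on than off the step were found in 18 clusters with H3K27ac, where 25 had more off, and in 51 without it, where 34 had more off. Without the cluster with the largest excess, the 19 peaks on chromosome 13, the share in clusters without H3K27ac was 57.6%. Without the clusters within 100 kb of a cluster of 20 or more peaks it was 56.5%.

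The share on the step moved with the background. Clusters without H3K27ac whose median background was over 3 times the lowest had 304 of 485 pairs (62.7%) on the step, and those with a lower background had 117 of 226 (51.8%). In clusters with H3K27ac the same split gave 64 of 128 (50%) and 243 of 491 (49.5%). What part the background has in this spacing was not tested.

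**Figure D2:**
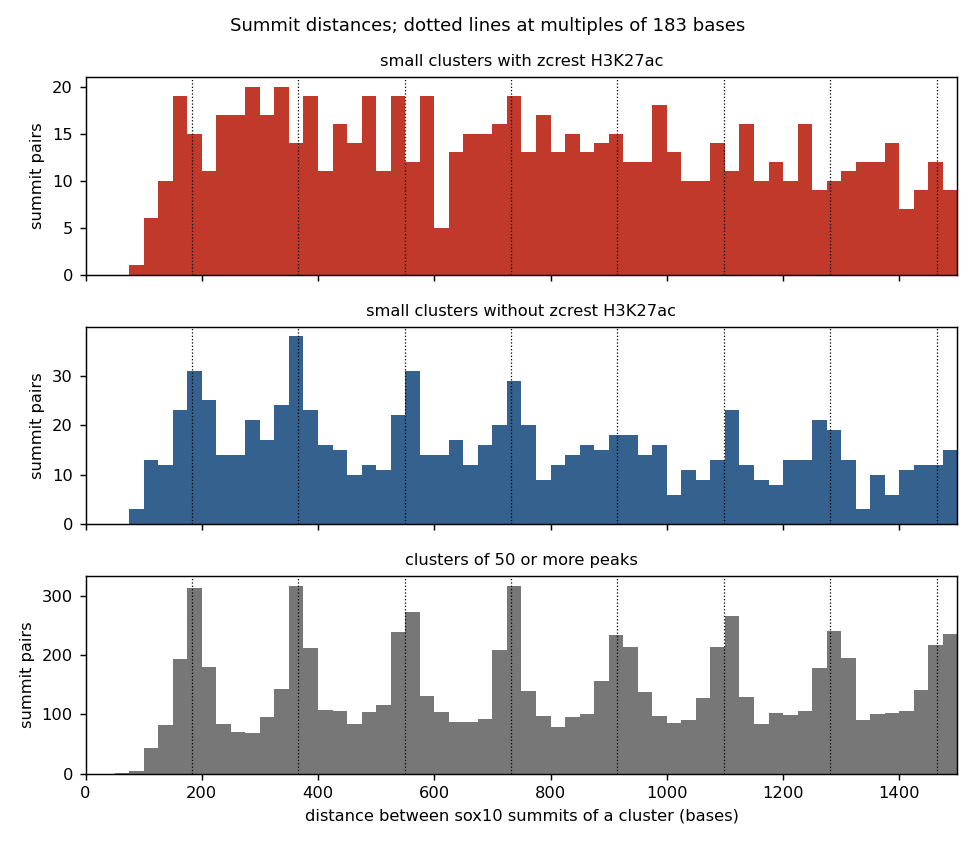
Distances between all pairs of sox10 summits of a cluster up to 1500 bases, in bins of 25 bases, for small clusters with zcrest H3K27ac (top), small clusters without it (middle) and clusters of 50 or more peaks (bottom). Dotted lines mark whole multiples of 183 bases. Peaks at the lines are plain at the bottom, visible in the middle and not seen at the top, where 49.6% of the counted pairs were on the step.

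Sox10 peaks of small clusters lay on zcrest H3K27ac more often than sox10 peaks at large. Of the 948 peaks, 149 (15.7%, interval 13.5 to 18.2%) shared at least 1 base with a zcrest H3K27ac peak, against 6.59% of all 4202 sox10 peaks. The share was 13.4% in isolated peaks, 6.94% in clusters of 20 to 49 and 0.60% in clusters of 50 or more. Small clusters and isolated peaks were thus close to each other, within overlapping intervals (10.4 to 16.9% for isolated peaks), and both stood above the larger clusters. Zcrest H3K27ac peaks covered 1.46% of the 1356 Mb spanned by peaks. Beside this overlap, the background of the sox10 peaks differs between the same groups, as given above, and its part was not tested.

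The share per peak hardly changed with the size of a small cluster, while the share per cluster grew. It was 16.4% of peaks in pairs, 13.9% in clusters of 3 to 4, 14.9% in clusters of 5 to 9 and 16.8% in clusters of 10 to 19. At least 1 peak on zcrest H3K27ac was found in 59 of the 187 clusters (31.6%, interval 25 to 38.7%), against 18.7% of all 685 sox10 clusters and isolated peaks. By size these were 15 of 73 pairs (20.5%), 10 of 35 clusters of 3 to 4 (28.6%), 20 of 51 clusters of 5 to 9 (39.2%) and 14 of 28 clusters of 10 to 19 (50%). A larger cluster has more peaks that can touch H3K27ac, and the nearly level share per peak stands beside these values. Of the clusters of 20 to 49 peaks 25.9% had such a peak, as did 1 of the 16 clusters of 50 or more.

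**Figure D3:**
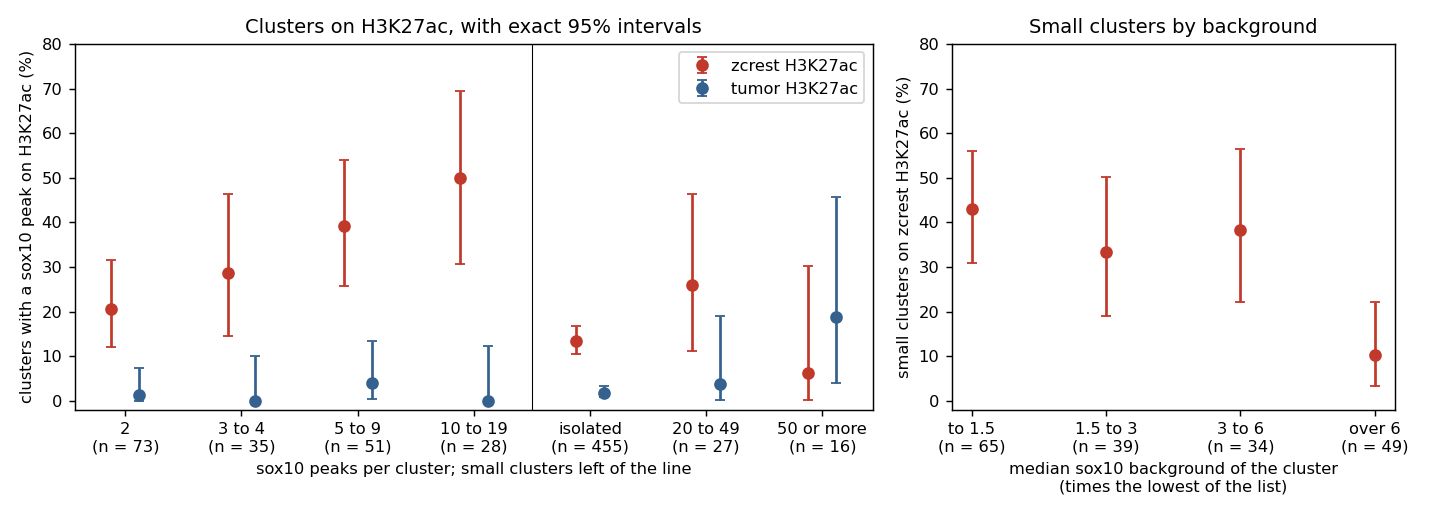
Left, percentage of sox10 clusters with at least 1 sox10 peak on H3K27ac of zcrest (red) and of the tumor (blue), by number of peaks; small clusters stand left of the line. Right, the same for small clusters on zcrest H3K27ac, by the cluster's median sox10 background as a multiple of the list's lowest. Points are shares and bars exact 95% intervals; the zcrest share goes from 20.5% in pairs to 50% in clusters of 10 to 19, and is 10.2% in the clusters with the highest background.

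Tumor H3K27ac was nearly absent from small clusters. Only 5 of the 948 peaks (0.527%, interval 0.171 to 1.23%) lay on a tumor H3K27ac peak, against 0.428% of all sox10 peaks, and 3 of the 187 clusters (1.60%, interval 0.332 to 4.62%) had one, against 2.19% of all clusters and isolated peaks. Tumor H3K27ac peaks covered 1.33% of the genome span, nearly as much as those of zcrest. The share of peaks was below the covered share and close to that of all sox10 peaks. It was 1.76% in isolated peaks (interval 0.762 to 3.43%), which overlaps the interval of small clusters. In clusters of 20 to 49 it was 0.126% and in clusters of 50 or more 0.2%. Line and tumor differ in source, culture and reporter, and these cannot be told apart here.

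Sox10 peaks of small clusters also lay nearer to H3K27ac of the line than to that of the tumor. Within 1 kb of a zcrest H3K27ac peak lay 320 of the 948 sox10 peaks (33.8%), against 13.3% of all sox10 peaks, and the bases within 1 kb of such peaks made up 5.97% of the span. Within 1 kb of a tumor H3K27ac peak lay 25 (2.64%), against 2.43% of all sox10 peaks. The bases within that distance made up 8.15% of the span. In isolated peaks the shares within 1 kb were 16.3% for zcrest and 8.79% for the tumor. They were 15.1% and 1.01% in clusters of 20 to 49, and 2.15% and 1.45% in clusters of 50 or more. The median distance was 15.9 kb to zcrest H3K27ac and 36.8 kb to tumor H3K27ac. The definition of the sets largely fixes their distances. Of the peaks in clusters with H3K27ac, 310 (84.0%) lay within 1 kb of such a peak. Of the peaks in clusters without it 1.73% did, at a median distance of 44.3 kb. Peaks of a cluster can share an H3K27ac peak. Over clusters, the share with a sox10 peak within 1 kb of zcrest H3K27ac was 34.8%, against 31.6% with a shared base.

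Zcrest H3K27ac covered a larger share of the cluster spans than of their flanks. Zcrest H3K27ac peaks covered 7.31% of the bases in small-cluster spans and 1.33% of the flanks of 10000 bases on each side, from which all clusters were left out. Over all small clusters the flanks were close to the 1.46% of the whole span, but the sets differed. In clusters with H3K27ac the covered share was 21.4% in the spans and 2.97% in the flanks, above that value. In clusters without it these were 0.365% and 0.545%, below it. The span values of both sets follow from how the sets are defined. Tumor H3K27ac covered 0.236% of the small-cluster spans and 0.711% of the flanks.

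**Figure D4:**
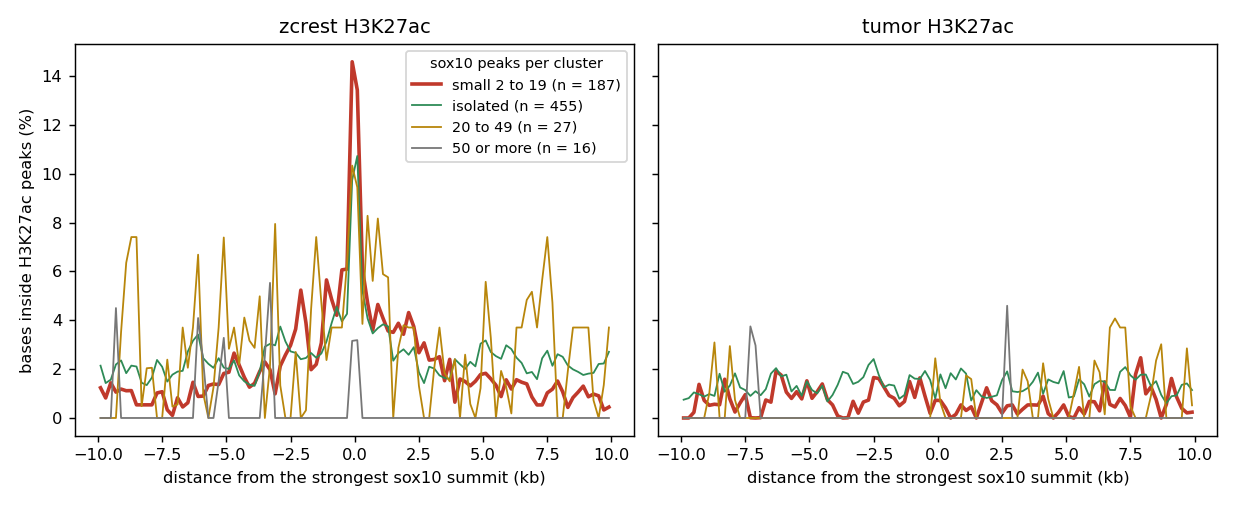
Percentage of bases inside zcrest (left) and tumor (right) H3K27ac peaks, in bins of 200 bases up to 10 kb from the strongest sox10 summit, for small clusters (red, n = 187), isolated peaks (green), clusters of 20 to 49 (gold) and clusters of 50 or more (grey). The zcrest curve of small clusters averages 14.0% within 200 bases of the summit and 1.01% beyond 5 kb, and the tumor curve 0.721% and 0.714%.

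Where sox10 and H3K27ac peaks shared bases, their summits lay close together, which the overlap rule largely fixes. Only peaks that share a base were counted, and these H3K27ac peaks had a median width of 235 bases, so long distances were hardly possible. In 134 of the 149 overlapping sox10 peaks the sox10 summit lay inside the H3K27ac peak, and 63 peaks lay inside it whole. The median distance between the sox10 summit and the H3K27ac summit was 34 bases, and 97 of the 149 (65.1%) were within 100 bases. These overlaps involved 113 zcrest H3K27ac peaks, of which 81 held 1 sox10 peak and 32 held 2 to 5.

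The H3K27ac peaks under small clusters were weak ones of their list, over a raised background. Their median fold was 3.20, against 5.33 for zcrest H3K27ac peaks without sox10, and 100 of the 113 were below the median of the list. The median width was 235 bases, against 296. Their summits held a median of 29 reads, close to the 27 of the peaks without sox10, while the caller's background was 8 reads, against 4. A background over 3 times the lowest of the list was found for 58.4% of them, against 20.9% of the peaks without sox10. The low fold therefore goes with a high background, and not with fewer reads. The H3K27ac peaks under isolated sox10 peaks had a median fold of 4.69, 41.5 reads and a background of 6 reads, and those under clusters of 20 to 49 had 2.88, 30 reads and 9.80 reads.

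Few of these H3K27ac peaks were found in the tumor. Of the 113 under small clusters, 2 overlapped a tumor H3K27ac peak (1.77%, interval 0.215 to 6.25%). Of the 62 under isolated sox10 peaks, 14 did (22.6%, interval 12.9 to 35.0%), and of the zcrest H3K27ac peaks without sox10 48.1% did. None of the 46 under clusters of 20 to 49 (interval up to 7.71%) and none of the 10 under clusters of 50 or more (interval up to 30.8%) did. The interval of small clusters thus lay below that of isolated peaks and overlapped those of the larger clusters. These sets of H3K27ac peaks also differ in fold, as given above, and in width. They were not matched for either, and what part fold and width have in the tumor overlap was not tested.

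Clusters with zcrest H3K27ac had more sox10 peaks and higher sox10 folds than those without it. The 59 clusters with H3K27ac had a median of 5 peaks and a span of 2260 bases, against 3 peaks and 1861 bases in the 128 without. A cluster with more peaks has more chances to be counted as having H3K27ac. Within size classes the span had no single direction. Its median was 427 bases with and 654.5 without in pairs, and 2280.5 and 2898 in clusters of 5 to 9. It was 1646 and 1603 in clusters of 3 to 4, and 5150.5 and 4960 in clusters of 10 to 19. When clusters were built from sox10 peaks of −log10 q of at least 10, both sets had a median of 5 peaks and the span difference turned to −749 bases (with minus without). The median of their highest fold was 11.7 (quartiles 8.63 and 16.5), against 7.10 (5.89 and 8.94), and the ranges of 2.66 to 32.9 with and 2.39 to 18.1 without overlapped. A highest fold over 10 was reached by 37 of 59 (62.7%) with H3K27ac and by 24 of 128 (18.8%) without.

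The difference in fold was present at each cluster size. With and without H3K27ac the median of the highest fold was 9.02 and 6.45 in pairs, 7.95 and 6.32 in clusters of 3 to 4, 12.8 and 8.84 in clusters of 5 to 9, and 16.5 and 8.94 in clusters of 10 to 19. Read the other way, H3K27ac was found in 2 of 22 clusters with a highest fold up to 5, in 9 of 60 between 5 and 7.5, in 11 of 44 between 7.5 and 10, in 20 of 39 between 10 and 15, and in 17 of 22 above 15. The last share was 77.3% (interval 54.6 to 92.2%). In clusters of 10 to 19 peaks, 13 of 18 with a highest fold over 10 had H3K27ac, against 1 of 10 with a lower one, and in pairs these were 6 of 14 against 9 of 59.

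The background moved in the other direction. Sox10 peaks of clusters with H3K27ac had a median background of 1.22 reads and 18 reads at the summit, against 3.29 and 24 reads in clusters without it. The lowest background of the list was set for 21.4% of the peaks with and for 10.4% of those without. The higher fold of clusters with H3K27ac therefore came with fewer reads over a lower background when all their peaks were taken. Among the strongest peaks of each cluster alone, the summit held 27 reads over a background of 1.13 with H3K27ac and 23 reads over 1.65 without.

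The background difference was found in clusters of 3 or more peaks, while pairs went the other way. With and without H3K27ac its median was 1.63 and 1.03 reads in pairs, 1.52 and 3.29 in clusters of 3 to 4, 1.26 and 3.29 in clusters of 5 to 9, and 0.986 and 4.12 in clusters of 10 to 19. Median summit reads went the same way, at 20 with and 13 without in pairs. They were 14 and 22 in clusters of 3 to 4, and 19 and 26.5 in clusters of 5 to 9. In clusters of 10 to 19 they were 18 and 30. Over clusters, H3K27ac was found in 28 of 65 (43.1%) with a median background up to 1.5 times the lowest, in 13 of 39 from 1.5 to 3 times, in 13 of 34 from 3 to 6 times, and in 5 of 49 (10.2%, interval 3.40 to 22.2%) above that. What part the background has in the overlap with H3K27ac was not tested, and which library set it is not stated in the labels.

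Other measures also separated the sets. Sox10 peaks covered a median of 44.1% of the span with H3K27ac, against 24.8% without, though in clusters of 3 to 4 peaks these were 20.6% and 28.1%. The median over clusters of each cluster's median peak width was 125 bases, against 81. The median distance to the next sox10 peak was 440 kb with H3K27ac, against 156 kb without. Clusters within 100 kb of a cluster of 20 or more peaks numbered 3 of 59 with and 13 of 128 without. The nearest tumor H3K27ac peak lay at a median of 19672 bases with and 43250.5 bases without.

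Peaks that were strong or wide were more often on zcrest H3K27ac, and inner peaks were so somewhat more often than outermost ones. The strongest peak of a cluster lay on zcrest H3K27ac in 42 of 187 cases (22.5%), against 107 of the 761 other peaks (14.1%), but in clusters of 3 to 4 the shares were 14.3% and 13.8%. In clusters of 3 or more, 101 of 574 inner peaks (17.6%, interval 14.6 to 21.0%) lay on it, against 24 of 228 outermost ones (10.5%, interval 6.86 to 15.3%). These intervals overlap. Inner peaks were also wider (median 103.5 against 90 bases) and had higher folds (median 6.43 against 5.91). What part position has apart from width and fold was not tested. With the 948 peaks of all clusters pooled and cut into 4 equal groups by fold, the share was 5.49%, 8.86%, 13.9% and 34.6%, low fold to high. It was also higher for wide peaks, at 8.75% of peaks up to 100 bases wide and 37.8% of those over 400 bases, and a wider peak has more bases that can overlap. In clusters with H3K27ac, the 149 peaks on it had a median of 23 reads over a background of 1.40, and the 220 off it 15 reads over 0.959.

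The clusters with the highest single folds mostly had a sox10 peak on zcrest H3K27ac. Of the 10 clusters with the highest sox10 fold, 9 had such a peak, against 59 of all 187 small clusters (31.6%). None of the 10 had one on tumor H3K27ac, where the share of all 187 was only 1.60%. The first was chr7:72149474-72153790, with 12 peaks over 4317 bases. Its strongest peak, chr7:72152204-72152423, had a fold of 32.9 from 86 reads over a background of 1.65, and the other 11 peaks had folds of 3.84 to 15.9 from 6 to 28 reads. Of its 12 peaks 4 lay on zcrest H3K27ac, the strongest one included. The H3K27ac peak under that strongest peak held 110 reads over a background of 30. Its fold was only 3.50, higher than 13.3% of the list. The nearest tumor H3K27ac peak was 725 bases away.

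The cluster with the most sox10 peaks on H3K27ac was chr16:9253731-9257419. It had 15 peaks over 3689 bases at a median summit distance of 237 bases, and 12 of them lay on 5 zcrest H3K27ac peaks. Its sox10 folds ran from 5.84 to 20.6, with 9 to 38 reads at the summits and backgrounds of 0.697 to 3.29. One of its H3K27ac peaks, chr16:9255798-9257306, was 1509 bases wide with a fold of 8.41, higher than 81.3% of the list, while the other 4 had folds of 1.90 to 3.49. No tumor H3K27ac peak lay within 5 kb.

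The next in this order was chr3:43062308-43067573, with 10 of its 13 peaks on zcrest H3K27ac and 7 H3K27ac peaks of fold 2.58 to 7.89 in its span. Its median sox10 background was the lowest of the list, 0.697 reads, and its nearest tumor H3K27ac peak lay 56.5 kb away. The cluster chr24:3325901-3332283 had 17 peaks and a highest fold of 21.9. Of its peaks 7 lay on zcrest H3K27ac, and its span held 7 H3K27ac peaks of fold 1.77 to 4.18. Strong sox10 clusters could thus carry H3K27ac peaks from very weak to well above the median of the list. The strongest in the chromosome 3 cluster had a fold higher than 78.1% of the list.

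Of the 22 clusters with a highest fold above 15, 5 had no zcrest H3K27ac on any peak. Of these 5, the one with the highest fold, chr21:38672989-38677210, had 10 peaks of fold 5.89 to 18.1 with 9 to 32 reads at the summits. Its nearest zcrest H3K27ac peak lay 2.18 kb away and had a fold of 3.42, and its nearest tumor peak lay 2.01 kb away. Its median background of 0.823 reads was as low as those of the clusters on chromosomes 7 and 16 described above, which had peaks on zcrest H3K27ac.

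**Figure D5:**
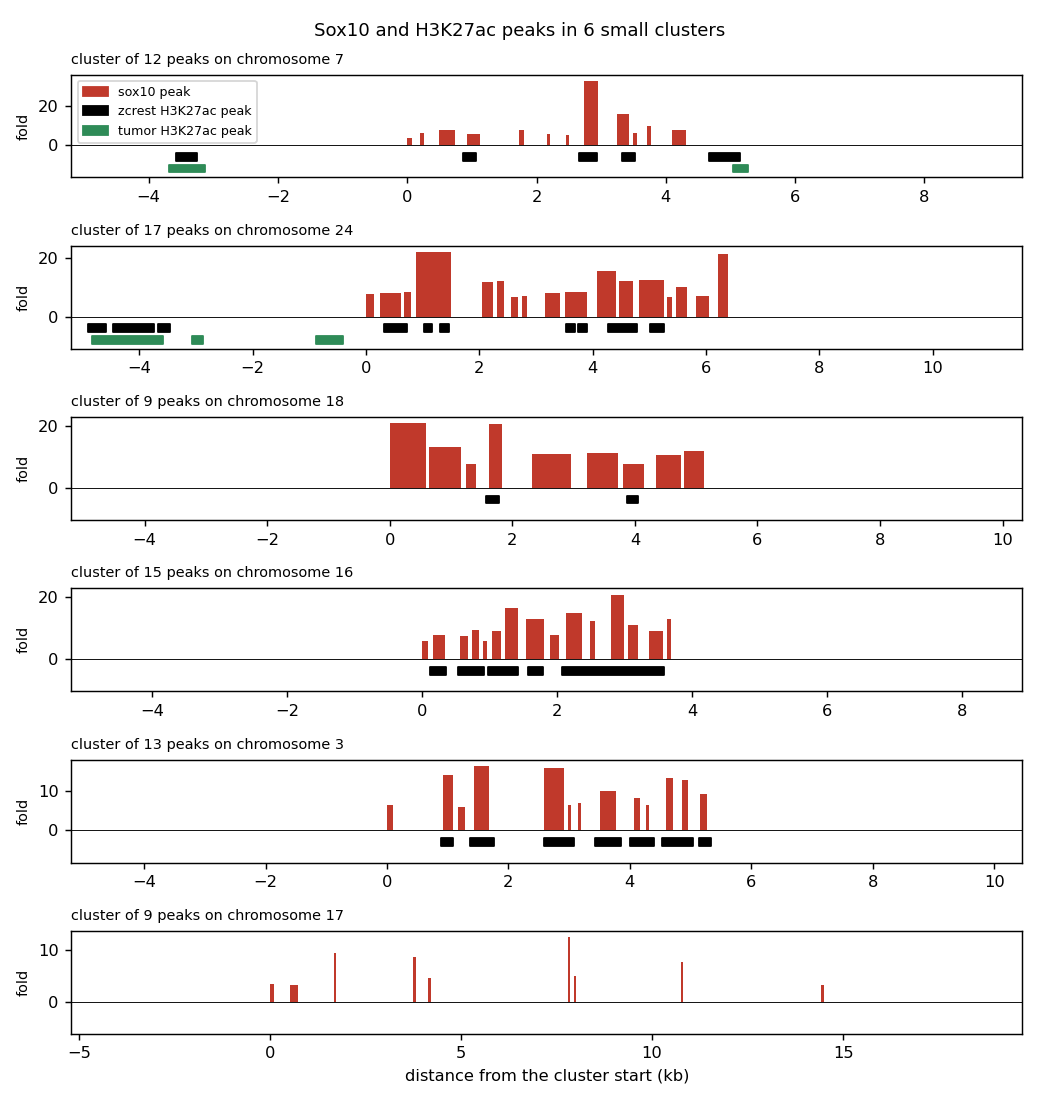
Sox10 peaks (red bars, height is fold enrichment) and the peaks of zcrest H3K27ac (black) and tumor H3K27ac (green) in 6 small clusters, against distance from the cluster start in kb. From the top they are the 4 clusters with the highest sox10 fold, the chromosome 3 cluster with 10 of 13 peaks on H3K27ac, and the longest cluster, on chromosome 17, which has no H3K27ac peak within 5 kb.

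The 3 clusters with a sox10 peak on tumor H3K27ac had 6, 5 and 2 peaks, with highest folds of 10.8, 3.94 and 5.16. In chr2:22045283-22047746, 2 of 6 peaks lay on tumor H3K27ac and 3 on zcrest H3K27ac, with sox10 folds of 3.03 to 10.8. In chr4:26153330-26154502, 1 of 5 peaks lay on tumor H3K27ac and none on zcrest H3K27ac, with folds of 2.33 to 3.94 and a median background of 9.88 reads. In chr6:43357009-43357438, both peaks lay on H3K27ac of both sources, with folds of 5.16 and 3.21 from 10 and 15 reads. The median backgrounds of all 3 clusters were over 3 times the lowest of the list, though the stronger peak on chromosome 6 had only 1.13 reads.

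The 5 longest clusters had 6 to 19 peaks, and peaks covered 3.9 to 24.5% of their spans. The longest, chr17:42720858-42735349, spread 9 peaks over 14.5 kb, so that peaks covered 5.20% of it, and the nearest zcrest H3K27ac peak lay 51.6 kb away. Of the 5 longest clusters, 1 had a sox10 peak on zcrest H3K27ac. Among clusters of 5 or more peaks, the smallest median summit distance was 192 bases, in the 5 peaks of chr25:27101487-27102504, with a median background of 6.58 reads. Next came chr3:46949424-46952239 with 199 bases and 9.88 reads, and chr6:17869738-17871612 with 212 bases and 6 reads. None of these 3 had H3K27ac of either source. The other 2 of the 5 densest were the chromosome 4 cluster on tumor H3K27ac, with 228 bases and 9.88 reads, and the chromosome 16 cluster with 12 of 15 peaks on zcrest H3K27ac, with 237 bases and 0.823 reads.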

How the data were processed

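Peak lists of 3 ChIP libraries were analysed; the 3 input libraries were not analysed here. The submitters' processing notes name Bowtie, MACS2 2.0 and the Zv9 assembly. Which Bowtie version, control and thresholds were used is not given in the sources used here. For each peak the deposited lists give a score, a fold (the ratio of signal to caller background), the −log10 of the p-value and q-value, and a summit position.

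Members and regions were chosen with earlier results of these data known. Reads k and background b at each summit were recovered from fold = (k + 1)/(b + 1) and the Poisson p-value, relations inferred from how closely the values follow them, with a scale on k of 1 for sox10, 0.977 for zcrest H3K27ac and 0.762 for tumor H3K27ac. The largest error of a sox10 peak in −log10 p was 6.39e-05, against a median of 0.287 for the next whole number. The tolerance for a match was 0.002. The recovery was tested on simulated data. H3K27ac reads are given before scaling and backgrounds after it. Reads are overlapping fragments at the summit, and total depth is unknown. The highest sox10 count was 102 reads in isolated peaks, in small clusters and in both groups of larger clusters. Whether counts are capped there was not tested. Values at the lowest background are within 1% of it.

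Regions named are the 10 small clusters with the highest sox10 fold, the 10 with the most sox10 peaks on zcrest H3K27ac, those on tumor H3K27ac, the 5 longest, the 5 densest with 5 or more peaks, and clusters of 19. Not all are described. No sequence or gene was used, as no Zv9 genome was used here. Python 3.11.15, numpy 2.4.6, pandas 2.3.3, scipy 1.17.1 and matplotlib 3.10.9 were used. Alternatives changed the peak thresholds, the linking distance and the overlap rule.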

Additional observations from a re-analysis of the deposited data

How the results depend on the processing

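Of 83 recomputed values over 11 results and 9 settings, 73 stayed inside the interval of the main value or, for counts, within 1.5 times of it. For medians this interval came from ranked values, and for differences it joined the ends of both sets' intervals, so it is wide. For the difference in number of peaks it ran from 0 to 5, so a change from 2 to 0 counts among the 73. With sox10 peaks of −log10 q of at least 10, the median span was 3291 bases and the median summit spacing 588 bases. In that setting both sets had a median of 5 peaks, a difference of 0, and the span difference turned round: clusters with H3K27ac were shorter than those without, by −749 bases (with minus without). A linking distance of 2000 bases gave 13.1% of peaks on zcrest H3K27ac. H3K27ac peaks of −log10 q of at least 5 gave 9.70% of peaks and 24.1% of clusters. Requiring 50% of the sox10 peak's bases gave 12.2% of peaks, and allowing 1000 bases gave 33.8% of peaks for zcrest and 2.64% of peaks and 5.88% of clusters for the tumor, as wider windows take in more. For the other changes the cause was not tested. Counting scaffolds was not run, since the lists hold no scaffold peaks; the 6 sox10 peaks off the numbered chromosomes are mitochondrial. Leaving out the 16 small clusters within 100 kb of a cluster of 20 or more peaks was chosen after seeing the data and moved no value beyond these limits. No paired analysis was possible because each group has 1 library. With 21 reads at the median summit, single folds are imprecise.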
